A study of Homo sapiens with 24 samples.

Results

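Broad H3K4me3 domains are stretches of chromatin in which trimethylation of lysine 4 of histone H3 runs on for kilobases. In PANC-1 cells, an established line from a human pancreatic ductal carcinoma, 913 such domains were found among 44697 merged H3K4me3 regions. Peaks of the 6 H3K4me3 lists were merged wherever they overlapped or touched. The domains were chosen by H3K4me3 covered length alone. A region was kept where each of the 6 lists had a peak in it and where the length under peaks, averaged over the 6 lists, was at least 2500 bp. A peak in all 6 lists was found in 21457 regions, so the domains were 4.26% of these, and the remaining 20544 are called the other six-list regions below. Covered length is therefore given as a description, with no test against other regions.

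The 3 groups shared the PANC-1 background and differed in siRNA and cytokine. siControl cells received a control siRNA and no TGFβ. siControl+TGFβ cells received the same siRNA and TGFβ at 10 ng/ml for 48 h, and siPHF13+TGFβ cells received an siRNA against PHF13 and the same TGFβ. ChIP-seq of H3K4me3, H3K27ac and H3K27me3 gave 2 libraries for each group and modification, 18 peak lists in all.

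H3K4me3 marks the start of genes and is written by SET1 and MLL family methyltransferases. At most active promoters it forms a short block beside the transcription start site (TSS), and long blocks are known from genes that define a cell type and from genes with a steady, high output. H3K27ac marks active promoters and enhancers. H3K27me3 is set by the Polycomb complex PRC2 at silent genes, and promoters that carry it together with H3K4me3 are called poised or bivalent. PHF13 is a chromatin protein with a PHD finger that reads methylated H3K4.

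Sequences at 5 domains are shown because these domains carry the contrasts described below. PPP1R15B was among the widest domains, EGFR and TGFB2 had much longer H3K27ac in both siControl+TGFβ lists than in both siControl lists, and KIF26B and PAX5 lay under H3K27me3 with no H3K27ac peak. Each line gives the 250 bases before the 5′-most coding TSS inside the domain, from the GRCh37 genome (hg19), read in the direction of transcription, with CpG dinucleotides in capitals.
PPP1R15B, chr1:204380719-204380968, minus strand: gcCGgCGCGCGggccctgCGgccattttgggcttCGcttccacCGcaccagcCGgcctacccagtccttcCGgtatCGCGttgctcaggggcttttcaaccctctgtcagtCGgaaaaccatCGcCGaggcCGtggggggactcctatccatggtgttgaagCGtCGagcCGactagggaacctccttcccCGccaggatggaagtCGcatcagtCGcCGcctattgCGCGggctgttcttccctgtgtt
EGFR, chr7:55086460-55086709, plus strand: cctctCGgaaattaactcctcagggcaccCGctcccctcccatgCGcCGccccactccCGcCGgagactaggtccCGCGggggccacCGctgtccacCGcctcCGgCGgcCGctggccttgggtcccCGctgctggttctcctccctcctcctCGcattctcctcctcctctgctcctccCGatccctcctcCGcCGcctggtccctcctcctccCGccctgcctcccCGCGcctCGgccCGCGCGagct
TGFB2, chr1:218518428-218518677, plus strand: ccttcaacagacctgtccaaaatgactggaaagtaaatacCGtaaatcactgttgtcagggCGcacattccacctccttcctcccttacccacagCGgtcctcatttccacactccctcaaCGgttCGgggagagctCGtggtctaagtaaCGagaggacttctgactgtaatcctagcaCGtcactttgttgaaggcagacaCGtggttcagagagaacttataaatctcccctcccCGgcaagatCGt
KIF26B, chr1:245318037-245318286, plus strand: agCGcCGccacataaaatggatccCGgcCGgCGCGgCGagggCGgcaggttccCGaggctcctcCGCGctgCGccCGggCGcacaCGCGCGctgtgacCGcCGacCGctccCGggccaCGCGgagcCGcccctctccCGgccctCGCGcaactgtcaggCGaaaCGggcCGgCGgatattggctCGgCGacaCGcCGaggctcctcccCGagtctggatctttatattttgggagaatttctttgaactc
PAX5, chr9:37025746-37025995, minus strand: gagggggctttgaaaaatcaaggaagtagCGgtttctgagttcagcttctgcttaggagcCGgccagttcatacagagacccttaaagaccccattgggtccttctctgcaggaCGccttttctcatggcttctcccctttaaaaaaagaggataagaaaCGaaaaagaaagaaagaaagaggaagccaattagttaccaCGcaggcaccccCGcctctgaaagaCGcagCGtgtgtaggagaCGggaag
KIF26B held 36 CpGs in its 250 bases and EGFR 25, whereas PAX5 held 9 and TGFB2 11. Over the 642 domains with coding TSSs on a single strand, the median window held 22 CpGs, against 20 in 11025 other six-list regions and 23 in 2215 regions from 2000 bp up to the limit. The letters TATAAA, searched on both strands, were found in 7.32% of the domain windows, 5.25% of the other windows and 4.74% of those from 2000 bp up to the limit. TGANTCA, the letters bound by AP-1, stood in 3.74% and 3.79% of domain and other windows, and GGAATG, the letters bound by TEAD factors, in 9.19% and 9.46%. TATAAA and GGAATG were both present in the TGFB2 window. These matches describe letters in the window and not bound sites.

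Some properties of the libraries bear on every value below. Peak names inside the lists labelled siControl+TGFβ carry the abbreviation 3AT, and those inside the lists labelled siPHF13+TGFβ carry NCT, which the study uses for siControl+TGFβ. Groups follow the labels. Were these labels exchanged, each direction given for PHF13 depletion would turn round and the TGFβ comparison would rest on other libraries. siPHF13+TGFβ replicate 1 had the shortest list for all 3 modifications, with 27869 of up to 39202 peaks for H3K4me3, 6004 of up to 36104 for H3K27ac and 59573 of up to 165717 for H3K27me3. The lists of this library, and the H3K27me3 list of siControl replicate 1, hold fewer peaks than the quality table of the study gives for them, while the peak numbers of the other lists and their labels match that table. Whether the shorter lists are complete is not known, so a peak missing from them may not mean that the mark was absent. The main values for PHF13 depletion are given with and without siPHF13+TGFβ replicate 1. Read counts are not part of the lists, and a better enriched or deeper library gives more and wider peaks. Nothing in the labels says that the libraries of a group came from separate cultures, so p-values measure the spread between these libraries only. The lists come from whole cell populations, in which a mark on fewer cells and a weaker mark in each cell cannot be told apart.

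PHF13, the target of the siRNA, was not at a broad domain. Its TSS on chromosome 1 (6673791, plus strand) lay in a short gap between a region of 996.5 bp and a region of 1832 bp in mean covered length, both present in all 6 lists. Because the siRNA targets the PHF13 mRNA, the marks at the gene are no measure of the depletion. As a check of the cell type, H3K4me3 peaks within 500 bp of a coding TSS were counted. They were found at the ductal epithelial genes KRT8, KRT18, KRT19, SOX9 and EPCAM in all 6 lists, and at KRT7 in 0. Of the fibroblast markers, DCN, LUM and FAP were at 0 lists, PDGFRA at 3 and THY1 at 6. Of the leukocyte markers, PTPRC, CD3E and LYZ were at 0 and CD68 at 4, and of the endothelial markers, CDH5 and VWF were at 0 and KDR at 6.

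The 913 domains had a median mean covered length of 2682 bp, with quartiles of 2579 and 2851 bp and a maximum of 3893 bp. Their merged spans summed to 2.91 Mb and held 7.47% of all bp under H3K4me3 peaks, averaged over the lists. The limit fell on a slope, with 2966 regions from 2000 bp up to it, 913 at or above it and 129 at 3000 bp or more. Just inside the limit were TJP1, a tight junction scaffold (2500.5 bp), and CLK3, a splicing factor kinase (2500.33 bp). Just outside lay MCMBP (2499.83 bp), MAPK6 (2499.67 bp) and KDM4C, an H3K9 demethylase (2498.33 bp). SNAI1, a transcription factor of the epithelial-to-mesenchymal transition (EMT), fell short of the limit with 2474.83 ± 696 bp (SD, n = 6 lists). It had 1912 and 3065 bp with siControl, 3059 and 2530 bp with siControl+TGFβ, and 1371 and 2912 bp with siPHF13+TGFβ. Its place outside the limit thus depended on single short lists, the shortest being siPHF13+TGFβ replicate 1.

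Domain length depended on the library. Median covered length per domain was 2587 and 2795 bp with siControl replicates 1 and 2, 2944 and 2832 bp with siControl+TGFβ, and 2323 and 2778 bp with siPHF13+TGFβ. Of the 913 domains, 588 and 842 reached 2500 bp in the siControl lists, 909 and 872 in the siControl+TGFβ lists, and 236 and 839 in the siPHF13+TGFβ lists. All 6 lists reached it in 187. siControl+TGFβ replicate 1 gave the longest version of 420 domains and siPHF13+TGFβ replicate 1 the shortest version of 720. The coefficient of variation over the 6 lists had a median of 9.85%, and 6.71% once each list was divided by its own median.

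**Figure D1:**
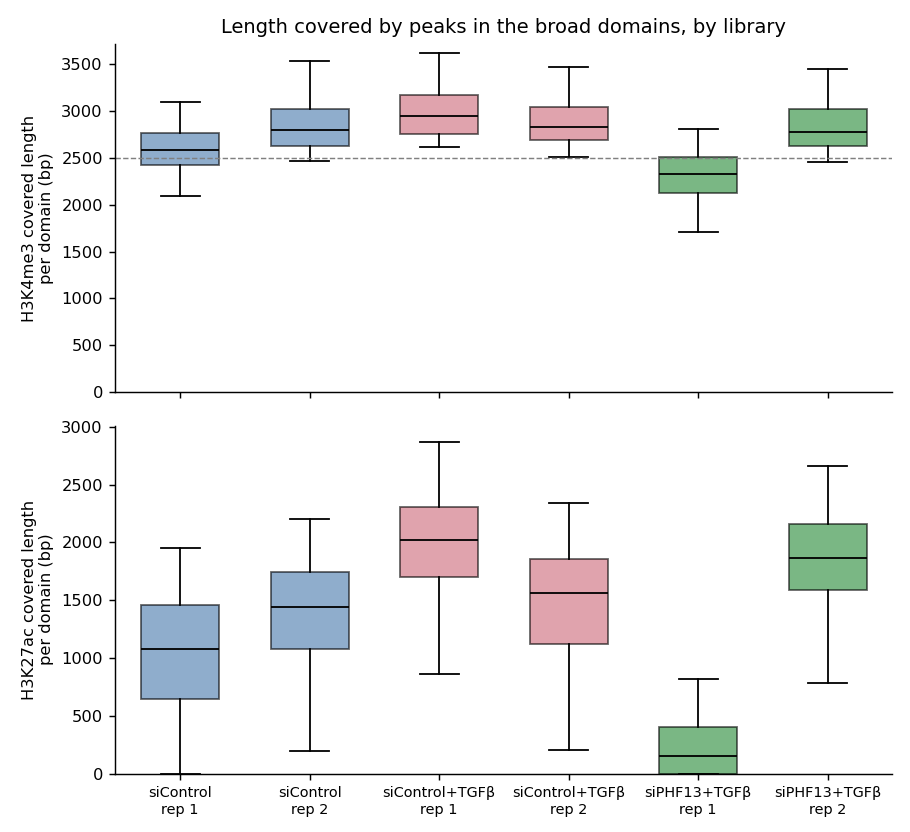
Base pairs under H3K4me3 peaks (top) and H3K27ac peaks (bottom) per domain in each of the 6 libraries, for 913 domains. Boxes span the quartiles with the median as a line, whiskers reach the percentiles 5 and 95, and the dashed line is the limit of 2500 bp. siPHF13+TGFβ replicate 1 is the lowest in both panels, with medians of 2323 and 153 bp.

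The widest domains lay at genes of quite different functions. PPP1R15B, which encodes a subunit that directs protein phosphatase 1 to eIF2α and ends the stress response, had 3755 and 4199 bp with siControl, 4074 and 3709 bp with siControl+TGFβ and 3337 and 4014 bp with siPHF13+TGFβ (chr1:204376518-204380855). The values of the groups overlapped. The domain shared by TSHZ1, a zinc finger repressor, and PTGR3 was the widest of all at 3893 bp (chr18:72919425-72924347). It had 3054 and 3870 bp with siControl, 4483 and 3891 bp with siControl+TGFβ and 3508 and 4552 bp with siPHF13+TGFβ. CDK6, the G1 cyclin-dependent kinase, was wide but uneven, with 2161 bp with siControl replicate 1, 2133 bp with siPHF13+TGFβ replicate 1 and 3804 to 4992 bp in the other 4 lists (chr7:92461357-92466615). Next to these stood BHLHE41 with SSPN (3766 bp), a circadian and hypoxia repressor, MAMLD1 (3644 bp), a Notch pathway coactivator, and PFN2 (3544 bp), an actin monomer binding profilin. SHH, the Hedgehog ligand, had 3521 bp, KIF26B, a kinesin family member, 3510 bp, SMC4 with IFT80, a condensin subunit and a ciliary transport protein, 3503 bp, EPHA7, an ephrin receptor, 3494 bp, JMJD1C, a Jumonji domain protein, 3481 bp, and BCL2L1, which encodes the survival protein BCL-XL, 3430 bp.

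A coding TSS was found in 828 of the 913 domains (90.7%). This share was 91.7% in regions from 2000 bp up to the limit and 58.9% over all the other six-list regions. The 828 held 1 coding gene in 623 cases, 2 in 191 and 3 or more in 14, 1051 genes in all of the 13288 with a TSS in a six-list region. For 911 of the 1051 genes at least 50% of the annotated coding TSSs lay in the domain, and for the other 140 the domain held a minority of them. Coding TSSs on both strands were present in 22.5% of coding domains, 18.6% of coding regions from 2000 bp up to the limit and 8.91% of all other coding six-list regions. Over the 5 length classes this share was 2.84%, 4.42%, 8.17%, 18.6% and 22.5%, from the shortest to the longest. In the 642 domains with TSSs on a single strand, H3K4me3 ran a median of 903.5 bp upstream of the first TSS and 2210 bp downstream of it. It extended farther downstream in 89.3% of them, and in 89.2% of such regions from 2000 bp up to the limit. Peak height did not follow length. The median fold enrichment of the strongest peak, averaged over lists, was 6.43 in regions under 1000 bp, 7.72 in regions from 1000 to under 1500 bp, 5.65 in regions from 2000 bp up to the limit and 4.50 in the domains.

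The 85 domains without a coding TSS were not far from genes. A coding TSS lay within 1 kb of 41 of them, a long noncoding RNA started in 35, 47 overlapped the body of a coding gene and 11 had neither. SOX4, a SOX family transcription factor, started 40 bp outside a domain of 3423 bp (chr6:21594022-21598684), and MCL1, a survival protein of the BCL2 family, 59 bp outside a domain of 3131 bp. MALAT1, a nuclear long noncoding RNA, carried 3457 bp (chr11:65266825-65271321) and NEAT1, the scaffold of paraspeckles, 3417 bp. LINC00662 carried 3419 bp (chr19:28282252-28286066). The widest of the 85, with 3736 bp, lay in the body of CRYBG1 (chr6:106958073-106962553).

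A miRNA gene lay inside 18 domains. RefSeq gave mature sequences for 11 of these miRNA genes, 16 sequences with 16 different seeds. The arms best known from pancreatic and other epithelial tumours are shown, 5′ to 3′, with the seed (bases 2 to 8) in capitals.
hsa-miR-21-5p: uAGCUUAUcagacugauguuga
hsa-let-7i-5p: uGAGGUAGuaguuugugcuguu
hsa-miR-92b-3p: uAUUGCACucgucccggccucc
hsa-miR-193a-3p: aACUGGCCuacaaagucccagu
The domain over MIR21, a miRNA that targets tumour suppressors, lay in the body of VMP1 (chr17:57915510-57919650) and had 3264 and 3866 bp with siControl, 3420 and 3434 bp with siControl+TGFβ and 2920 and 3467 bp with siPHF13+TGFβ. H3K27ac over it was 1314 and 1917 bp, 2804 and 1794 bp, and 394 and 3557 bp in the same order. The groups overlapped in both marks. MIRLET7I, of the differentiation-linked let-7 family, stood in a domain of 2883 bp, MIR92B of 2694 bp and MIR193A of 2552 bp.

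It was next asked whether the domains carried more of the active mark and less of the Polycomb mark than other promoters. H3K27ac lists were not used to choose the domains. An H3K27ac peak overlapped 91.1% and 96.2% of the domains in the siControl lists, 98.7% and 96.2% in the siControl+TGFβ lists, and 50.8% and 98.0% in the siPHF13+TGFβ lists. In 461 domains (50.5%) all 6 lists had one, and in 828 all 5 lists other than siPHF13+TGFβ replicate 1 had one. Of the other six-list regions, 18.7% and 50.3% did so.

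To take out the length of the domains, H3K27ac was counted within 500 bp of each coding TSS, for 3733 TSSs in domains and 40314 in the other regions. In the siControl lists, 86.0% and 92.8% of domain TSSs had a peak, against 65.4% and 78.1% of other TSSs. In siControl+TGFβ these were 96.5% and 91.6% against 85.4% and 77.4%, and in siPHF13+TGFβ 45.6% and 95.7% against 24.3% and 84.3%. Domain TSSs were higher in 6 of 6 libraries, by 15.5 ± 4.42 percentage points (SD, n = 6), which exceeded the spread between libraries (exact two-sided sign-flip permutation test, p = 0.03125, the smallest that 6 libraries can give). H3K27me3 went the other way. It stood at 1.75% of domain TSSs and 11.2% of other TSSs on average, lower in 6 of 6 libraries with a difference of -9.50 ± 1.94 points (exact sign-flip permutation p = 0.03125). These differences were much smaller against regions just below the limit. Against 11204 TSSs in regions from 2000 bp up to the limit, H3K27ac differed by 0.292 ± 2.94 points (exact permutation p = 0.96875) and H3K27me3 by -0.597 ± 0.351 points (exact permutation p = 0.0625), a comparison added after the data were seen. For H3K27ac, siPHF13+TGFβ replicate 1 gave 6.21 points and the other libraries -1.46 to 0.09 points. For H3K27me3, that library gave 0.09 points and the others -0.874 to -0.561 points. The share of TSSs with H3K27ac was 31.4%, 51.7%, 75.4%, 84.4% and 84.7% from the shortest to the longest of 5 length classes, and that with H3K27me3 35.5%, 22.3%, 6.73%, 2.34% and 1.75%. At the TSS itself, a difference from the longest typical promoters was thus not detected.

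**Figure D2:**
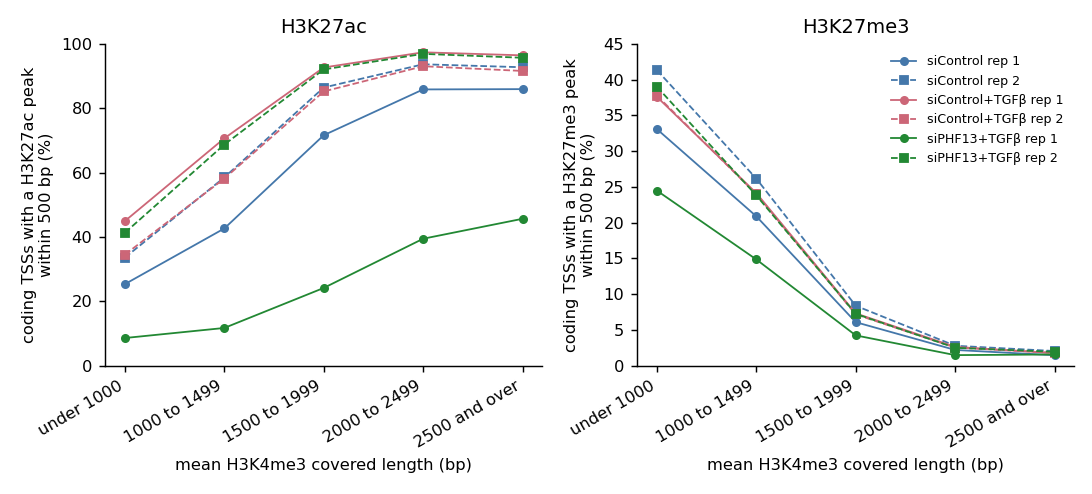
Percent of coding TSSs with an H3K27ac peak (left) or H3K27me3 peak (right) within 500 bp, by mean H3K4me3 covered length of the region, with 1 line for each of the 6 libraries. Mean H3K27ac shares are 84.4% in the class just under the limit and 84.7% in the domains. Between these classes the siPHF13+TGFβ replicate 1 line rises from 39.4% to 45.6%, and the other H3K27ac lines change by -1.46 to 0.09 points.

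Away from the TSS the domains did differ in how far H3K27ac reached. In the 642 single-strand domains, H3K27ac at 1000 bp downstream of the TSS was present in 31.5% and 43.9% (siControl), 68.7% and 51.1% (siControl+TGFβ) and 5.30% and 65.9% (siPHF13+TGFβ). In 11025 other regions it was present in 8.52% and 12.5%, 27.1% and 15.5%, and 1.02% and 22.7%. The domain value was the higher in each of the 6 libraries. These profiles are a description, since the domains are longer than the other regions by choice. H3K27ac was highest 200 to 300 bp downstream of the TSS, in both sets of regions. Per domain, H3K27ac covered a mean of 1042 and 1387 bp with siControl, 1974 and 1462 bp with siControl+TGFβ and 230.4 and 1836 bp with siPHF13+TGFβ, against 807 and 1106, 1598 and 1163, and 154 and 1500 bp in regions from 2000 bp up to the limit. These bp were counted inside each H3K4me3 region, so longer regions can hold more of them.

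**Figure D3:**
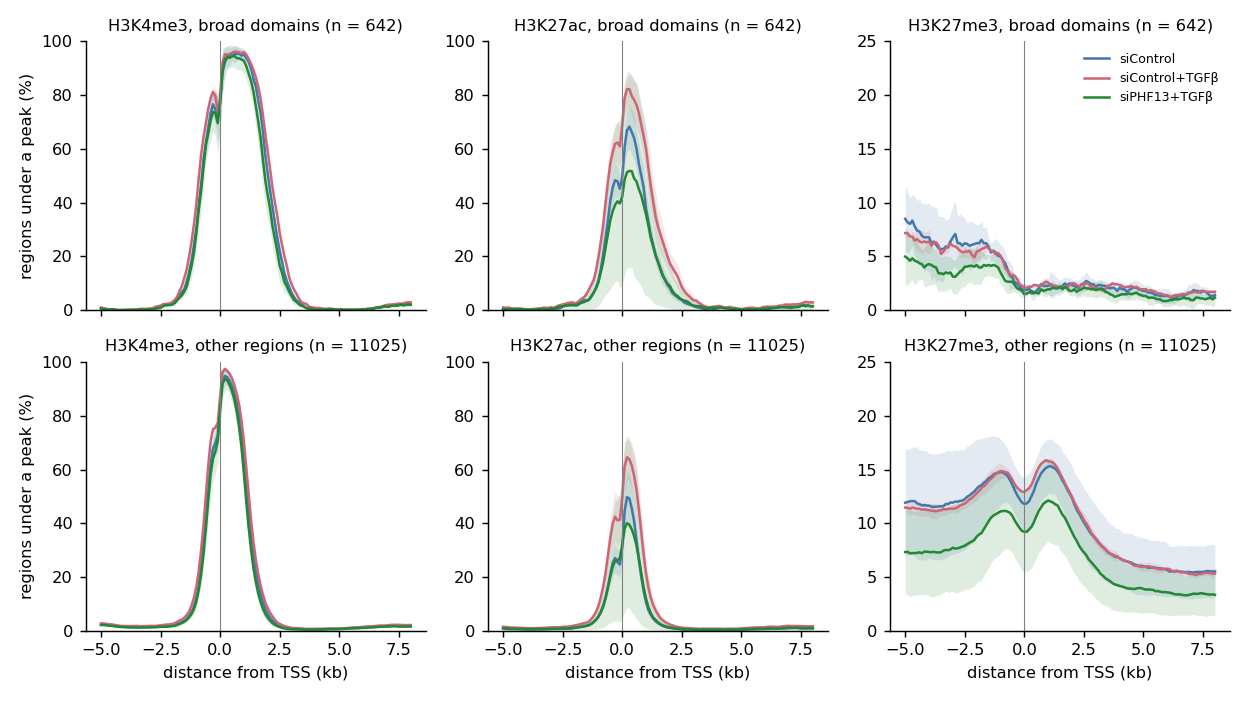
Percent of regions under a peak by distance from the 5′-most coding TSS (kb, downstream to the right), for 642 broad domains (top) and 11025 other six-list regions (bottom) with TSSs on a single strand. Lines are means of the 2 libraries of a group and shading spans both libraries. H3K4me3 and H3K27ac extend farther downstream in the domains, and H3K27me3 is low there, with an axis that ends at 25%.

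H3K27me3 was absent from the lists over most domains. In 847 of 913 domains (92.8%) 0 lists had an H3K27me3 peak, against 15407 of the 20544 other six-list regions. A peak in all 6 lists was found in 28 domains, 3.07% against 12.4%. Without siPHF13+TGFβ replicate 1, 32 domains had a peak in all 5 lists, 3.5% against 15.6%. The base composition of these 28 was richer in GC, at a median of 65.6%, than that of the 847, at 55.1%. Their H3K4me3 was about as long (medians of 2664 and 2682 bp), while their H3K27ac was short, with medians of 110.4 and 1398 bp. A total of 11 domains had no H3K27ac peak in any list, and all of these 11 had H3K27me3 in all 6 lists. Of the 847 domains without H3K27me3, 0 lacked H3K27ac in every list.

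Genes at the 28 domains with H3K27me3 in all 6 lists included several developmental regulators. RASGRP2, a guanine nucleotide exchange factor of blood cells, had 2651 and 3605 bp of H3K27me3 in siControl, 3605 and 3605 bp with siControl+TGFβ and 2883 and 3605 bp with siPHF13+TGFβ, and 0 bp of H3K27ac throughout (chr11:64510020-64513624). PAX5, the B cell identity factor, had 2946 bp in each of the 5 lists other than siPHF13+TGFβ replicate 1, which had 2217 bp (chr9:37025380-37028325). CXCR4, the receptor of CXCL12, had 2254 and 3161 bp, 3161 and 2309 bp, and 2339 and 3161 bp (chr2:136874003-136877163). H3K27me3 covered 92.3%, 95.9% and 86.4% of these 3 H3K4me3 domains on average, with 0 bp of H3K27ac in every list. DLL4, a Notch ligand, had 3000 bp in 4 lists and 1442 and 1583 bp in replicate 1 of siControl and of siPHF13+TGFβ. HEY2, a Notch target, had 941 to 2212 bp, and KIF26B 280 to 2626 bp. No H3K27ac was found over any of these, nor over PRKAG2, BCL11B, PRR15 and 2 domains without a coding TSS.

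The domains with H3K27me3 in all 6 lists other than those 11 had some H3K27ac in at least 1 list. CAMK2N1, an inhibitor of CaM kinase II, had H3K27me3 of 1748 to 3014 bp in the 6 lists and H3K27ac of 910 and 157 bp with siControl+TGFβ, 430 bp with siPHF13+TGFβ replicate 2 and 0 bp in the other 3. The homeobox genes NKX6-2 and BARX2, and NPTX1, a neuronal pentraxin, had H3K27me3 in all 6 lists and at most 849 bp of H3K27ac. ATF3, a stress-responsive AP-1 family factor, had 1021 to 1806 bp of H3K27me3, with H3K27ac of 218 and 270 bp with siControl, 1234 and 309 bp with siControl+TGFβ, and 0 and 1460 bp with siPHF13+TGFβ. For ATF3 both siControl+TGFβ values lay above both siControl values, the second by a small margin.

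To examine TGFβ in control cells, the domains of siControl and siControl+TGFβ were compared. H3K27ac covered 38.1 ± 7.63% of the bp of the domains in siControl and 53.8 ± 11.4% in siControl+TGFβ (SD, n = 2), a log2 difference of 0.50 with the same direction in 4 of 4 library pairs (exact two-sided permutation test, p = 0.333, the lowest value possible with 2 against 2). The other six-list regions had a log2 difference of 0.64, so the domains were 0.14 lower than these. H3K27me3 covered 2.05 ± 0.62% and 2.23 ± 0.25% (exact permutation p = 1). H3K4me3 covered length had a median log2 difference of 0.10 over the domains and 0.14 over the other regions. Taken domain by domain, its median was 0.045 without siControl replicate 1 and 0.15 without siControl replicate 2.

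Domain by domain, limma gave 0 adjusted calls for H3K4me3 length among all 21457 six-list regions, which are 0% of those tested. At an unadjusted p under 0.05, 5 of the 913 domains were wider and 0 narrower, against 2.53% and 0.0326% of all regions. Counting both directions, the 5 became 0 (0.848% of all regions) without siControl replicate 1, 11 (8.37%) without siControl replicate 2, 1 (0.541%) and 0 (0.816%) without siControl+TGFβ replicate 1 and 2, and 21 (6.84%) with 1 siPHF13+TGFβ library left out, whichever it was. The siPHF13+TGFβ libraries entered this fit through the shared estimate of spread. For H3K27ac, 872 domains had the mark in at least 4 of 6 libraries and entered the fit, and limma called 0 of 13367 regions (0%) after adjustment. At an unadjusted p under 0.05, 3 domains were higher (FAT4, TMEM158 and TGFB2), against 0.0598% of the regions, and 0 lower. In both directions together this number was 0 with a pseudocount of 10 bp (0.0449% of all regions) and 0 with a −log10 q filter of 3 (0.031%). It was 9 with a replicate block (0.232%) and 19 with each library centred on its median (3.14%). The 3 became 2 (0.015%) and 7 (0.314%) without siControl replicate 1 and 2, 0 (0%) with 1 siControl+TGFβ library left out and 46 (6.85%) with 1 siPHF13+TGFβ library left out, whichever it was. H3K27ac was longer in both siControl+TGFβ lists than in both siControl lists in 538 of 913 domains (58.9%), with 36.8% of all six-list regions doing so, and shorter in 0 (0.177% of all regions). siControl+TGFβ replicate 1 also had the longest H3K27ac list, and the part of list length in these counts was not tested. Without siControl+TGFβ replicate 2 the count was 885 of 913 (71.4% of all regions) and without siControl replicate 2 it was 799 (56.7%). It was 542 (37.3%) without siControl+TGFβ replicate 1 and 557 (38.7%) without siControl replicate 1. The domains were chosen by H3K4me3 length, so counts of that length are a description. The group mean reached 2500 bp in 783 domains with siControl, 908 with siControl+TGFβ and 512 with siPHF13+TGFβ. In 92 domains it did so with siControl+TGFβ alone. H3K4me3 was longer in both siControl+TGFβ lists in 413 domains, 45.2% against 43.9% of all regions, and shorter in 13 (3.03% of all). Leaving out siControl replicate 2 gave 740 longer domains (74.1% of all regions), siControl+TGFβ replicate 2 gave 636 (66.2%), siControl replicate 1 gave 473 (53.9%) and siControl+TGFβ replicate 1 gave 494 (53%). H3K27me3 was longer in 8 domains (1.68% of all regions) and shorter in 6 (1.27%). The 8 became 11 (2.17%) and 23 (8.18%) without siControl replicate 1 and 2, and 12 (3.45%) and 22 (4.13%) without siControl+TGFβ replicate 1 and 2. The share with longer H3K27ac was thus above that of all regions and the share with longer H3K4me3 close to it. Of the other six-list regions, 23.4% had no H3K27ac in any list and could not be longer, against 1.20% of the domains.

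The domains with the largest differences in H3K27ac under TGFβ included several signalling genes. PPP1R18, which encodes an actin-binding subunit of protein phosphatase 1, had 368 and 494 bp of H3K27ac in siControl, 3168 and 1833 bp with siControl+TGFβ, and 0 and 2526 bp with siPHF13+TGFβ (chr6:30650608-30654344). NFKB2, the p100 and p52 subunit of NF-κB, had 0 and 795 bp, 2892 and 1948 bp, and 0 and 2079 bp. EGFR, the receptor of EGF and an oncogene, had 791 and 1143 bp, 3394 and 2302 bp, and 0 and 1868 bp (chr7:55086276-55090189). Domains were eligible here only where siControl and siControl+TGFβ did not overlap. In all 3 genes siPHF13+TGFβ replicate 1 had no peak, and replicate 2 lay above both siControl values. TGFB2, a TGFβ ligand, had 189 and 0 bp, 2053 and 1265 bp, and 0 and 1523 bp (chr1:218518467-218521323), with a limma log2 difference of 3.33 ± 1.48 (SE, on the scale of log2 bp plus 100) and an adjusted p of 1. ATP2B4, a plasma membrane calcium pump, had 0 and 372 bp with siControl against 2471 and 1528 bp, and TMEM158, a RAS-induced membrane protein, 198 and 0 bp against 1968 and 1426 bp. IQCJ-SCHIP1, a readthrough gene model, and PRPSAP1 with SPHK1, the sphingosine kinase, completed the 8. H3K4me3 lay over all 8 in every list, and in EGFR it was 2880 and 3640 bp with siControl and 3693 and 3249 bp with siControl+TGFβ.

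**Figure D4:**
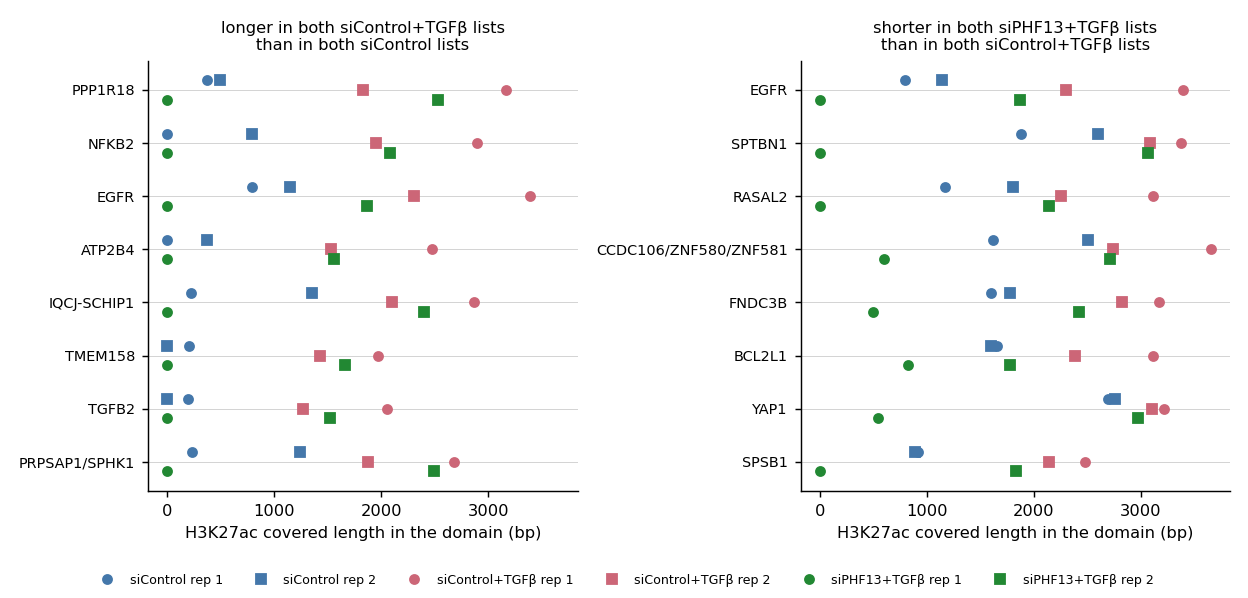
H3K27ac covered length (bp) in each of the 6 libraries for the 8 coding domains with the largest difference between siControl+TGFβ and siControl (left) and the 8 with the largest difference between siPHF13+TGFβ and siControl+TGFβ (right). Domains were eligible only where both siControl+TGFβ lists lay above both siControl lists (left) or above both siPHF13+TGFβ lists (right). Circles are replicate 1 and squares replicate 2, and colours are groups. siPHF13+TGFβ replicate 1 lies far below replicate 2 in every row, at 0 bp in EGFR against 1868 bp.

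The comparison of siPHF13+TGFβ with siControl+TGFβ used the same siControl+TGFβ lists, so its values are not independent of those above. H3K27ac covered 53.8 ± 11.4% of domain bp with siControl+TGFβ and 32.4 ± 35.6% in siPHF13+TGFβ (SD, n = 2), a log2 difference of -1.39 (exact permutation p = 0.667). The values of the siPHF13+TGFβ lists were 7.22% and 57.5%. Without replicate 1 the log2 difference was 0.11, so its direction rested on that library. The other six-list regions had -1.60, and 0.18 without replicate 1. H3K27me3 covered 1.76 ± 0.50% of domain bp with siPHF13+TGFβ, a log2 difference of -0.37 (exact permutation p = 0.667), and -0.07 without replicate 1. Median H3K4me3 length had a log2 difference of -0.18, and -0.056 without replicate 1, beside -0.27 and -0.099 in the other regions.

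By domain, limma gave 0 adjusted calls for H3K4me3 length and 0 for H3K27ac (0% of regions in both). At an unadjusted p under 0.05, 26 domains had shorter H3K4me3 in siPHF13+TGFβ, against 7.27% of all regions, and 0 had longer (0.0419%). In both directions together, the 26 became 11 (3.98% of all regions) without siPHF13+TGFβ replicate 1 and 341 (39%) without replicate 2. They became 0 (1.29%) and 2 (1.76%) without siControl+TGFβ replicate 1 and 2, and 13 (5.94%) with 1 siControl library left out. STAMBPL1, CPT1A and SEPTIN9 were among the 26, chosen here after their values were seen. For H3K27ac this number was 0 in both directions, and 784 of 872 (77.7% of all regions) without siPHF13+TGFβ replicate 2. Here too, counts of H3K4me3 length are a description, since that length chose the domains. H3K4me3 was shorter in both siPHF13+TGFβ lists than in both siControl+TGFβ lists in 487 domains (53.3%), with 56.2% of all regions doing so, and longer in 1 (0.778%). Replicate 2 alone lay below both siControl+TGFβ lists in 492 (57.9% of all regions) and above both in 153 (14.8%). H3K27ac was shorter in 137 domains (15.0%), with 9.11% of all regions doing so, and longer in 0 (0.014%). In H3K27ac too, replicate 2 alone lay below both siControl+TGFβ lists in 137 domains, but above both in 249 (23.6% of all regions). H3K27me3 was shorter in 15 domains (3.71% of all regions) and longer in 4 (0.326%), and by replicate 2 alone in 16 (3.96%) and 15 (3.43%).

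The 8 coding domains with the largest H3K27ac difference here included EGFR, with the values given above, and YAP1, the coactivator of the Hippo pathway. Domains were eligible only where both siPHF13+TGFβ lists lay below both siControl+TGFβ lists, so replicate 2 was lower in all 8 by choice. Among all domains, replicate 2 lay below both siControl+TGFβ lists in 137 and above both in 249. YAP1 had 2690 and 2761 bp of H3K27ac in siControl, 3217 and 3099 bp with siControl+TGFβ, and 543 and 2973 bp with siPHF13+TGFβ (chr11:101980364-101983873). BCL2L1 had 1653 and 1595 bp, 3113 and 2388 bp, and 825 and 1777 bp. For SPTBN1, a spectrin of the membrane skeleton, the values were 1881 and 2601 bp, 3379 and 3081 bp, and 0 and 3067 bp. Replicate 2 was thus 14 bp below the nearest siControl+TGFβ value in SPTBN1, 126 bp below it in YAP1, 434 bp below it in EGFR and 611 bp below it in BCL2L1. RASAL2, a RAS GTPase-activating protein, the CCDC106 domain with ZNF580 and ZNF581, FNDC3B and SPSB1 made up the 8. Most of each difference in means came from replicate 1, which had 0 to 825 bp in all 8.

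Gene lists were then set against the domains. Of all coding genes with a TSS in a six-list region, 7.91% were in a domain. The lists were chosen with earlier results of these data known, and their shares are counts with no test. Of the TGFβ pathway, 8 of 35 genes were in a domain (22.9%). These were the ligands TGFB1, TGFB2 and INHBB, the BMP receptor BMPR1A and the inhibitors SMAD6, SKI, TGIF2 and PMEPA1. None of the receptor-activated SMADs nor SMAD4 was among them, and TGFBR1 and TGFBR2 had 1984 and 2252 bp. TGFB1 had 559 and 970 bp of H3K27ac in siControl, 2164 and 628 bp with siControl+TGFβ, and 0 and 2241 bp with siPHF13+TGFβ, so its groups overlapped. PMEPA1, a TGFβ-induced inhibitor of SMAD signalling, had 559 and 1681 bp, 3112 and 1563 bp, and 0 and 2937 bp. INHBB, an activin subunit, was under H3K27me3 in all 6 lists, with 251 to 3070 bp. TGFB2 and BMPR1A of the 8 had H3K27ac longer in both siControl+TGFβ lists, beside 538 of the 913 domains (58.9%) and 36.8% of all six-list regions.

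Domains at other signalling genes were spread over many lists. Of the AP-1 subunits, FOS, FOSB and ATF3 were in a domain (3 of 10), and of immediate early and feedback genes EGR2, MAFG, DUSP10, SPRED1 and SOCS2 (5 of 19). Of the Hippo list YAP1, its paralogue WWTR1, AJUBA and AMOTL2 were in one (4 of 19), and all 4 had H3K27ac longer in both siControl+TGFβ lists, which 58.9% of all domains and 36.8% of all regions did. The same was true of NFKB2, REL and NFKBIA, the 3 of 19 genes of the NF-κB list. It held for 3 of the 5 oncogenes named next, 2 of the 5 immediate early and feedback genes, 1 of the 3 AP-1 subunits, 1 of the 4 Notch genes and 0 of the 3 tumour suppressors. NFKBIA, the inhibitor that NF-κB induces, had 764 and 1546 bp of H3K27ac in siControl, 2684 and 2066 bp with siControl+TGFβ, and 0 and 2017 bp with siPHF13+TGFβ. Of the oncogenes, EGFR, MET, HRAS, PIK3CA and CDK6 were in a domain (5 of 22), and of the tumour suppressors KMT2D, FBXW7 and BRCA1 (3 of 23). The BRCA1 entry rested on 1 of 14 annotated TSSs, in a domain shared with NBR1, and that of KMT2D, an H3K4 methyltransferase, on 1 of 10. Of the Notch list, which was added after the values were seen, HES4 (3387 bp) and JAG1 (3219 bp) carried H3K27ac, and DLL4 and HEY2 carried H3K27me3 (4 of 25).

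Ribosomal protein genes, which have a steady and high output, were in domains in 14 of 76 cases (18.4%). H3K27ac was longer in both siControl+TGFβ lists in 10 of the 14, beside 58.9% of all domains and 36.8% of all regions. RPL7 was the widest of these at 3397 bp, and RPL4 followed at 2984 bp. H3K27ac was present over RPLP2 in all 6 lists, with 1771 and 1791 bp with siControl, 2156 and 1841 bp with siControl+TGFβ, and 1427 and 1961 bp with siPHF13+TGFβ. The RPLP2 value in siPHF13+TGFβ replicate 1 compares with a median of 153 bp over the domains of that list. A pair of lists had no gene in a domain. The lists held 11 EMT transcription factors and 27 foregut and pancreatic lineage factors. Of the 9 and 18 of these in six-list regions, 0 were in a domain. Their median covered lengths were 1610 and 1574 bp. Beside 7.91% of all coding genes, 0 in lists this short is a small departure and was not tested. Of the EMT factors, SNAI1 was the widest at 2475 bp, just under the limit, with 1371 bp in siPHF13+TGFβ replicate 1. ZEB1 had 1914 bp and TWIST2 2020 bp. The TSS of SOX9, like that of PHF13, lay between a pair of regions, so it lay in no region although peaks were within 500 bp. HOX genes were in a domain in 2 of 15 cases, and actin and adhesion genes in 3 of 23, namely ITGA2, ITGAV and CDH2. CDH2, the N-cadherin of mesenchymal cells, had 0 and 354 bp of H3K27ac in siControl, 1551 and 380 bp with siControl+TGFβ, and 158 and 1662 bp with siPHF13+TGFβ.

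**Figure D5:**
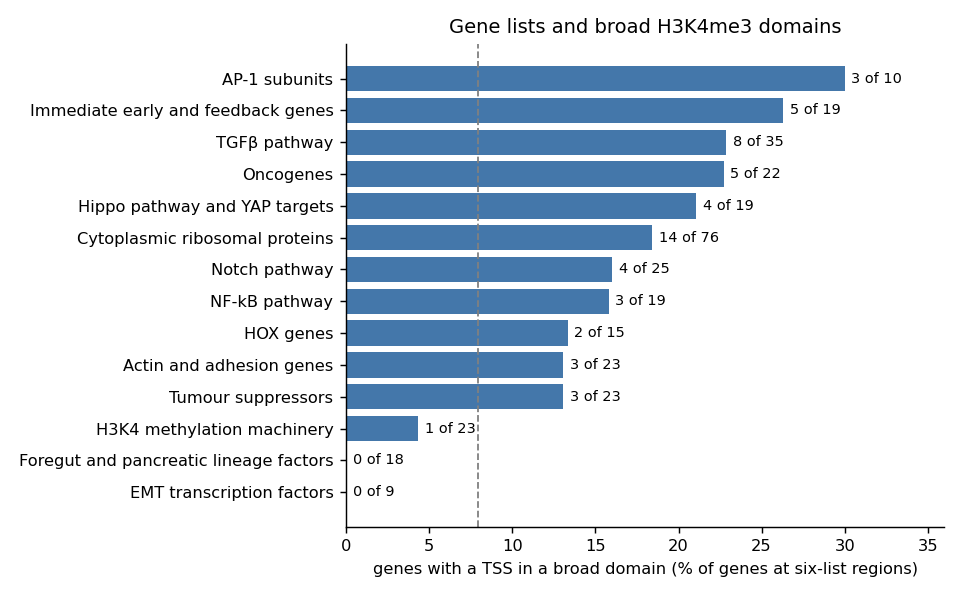
Percent of genes with a TSS in a six-list region that have a TSS in a broad domain, for 14 gene lists, with the counts beside the bars. The dashed line is the share over all coding genes, 7.91%. The AP-1 list has the highest share (3 of 10), and 2 lists have none.

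Some domains varied much more in length than others, and those named here were chosen after their values were seen. SKIDA1 had 1688 and 3938 bp of H3K4me3 in siControl, 3659 and 3345 bp with siControl+TGFβ, and 830 and 2980 bp with siPHF13+TGFβ, the largest coefficient of variation of the 913 (44.6%). ZNF462, a zinc finger gene, had 1639 and 3953 bp, 3143 and 2392 bp, and 1078 and 3824 bp. LHX1, a LIM homeobox gene, had 1940 and 3793 bp, 4280 and 3089 bp, and 1215 and 3789 bp. In all 3 genes replicate 1 of siControl and of siPHF13+TGFβ was the shorter of its group. siControl overlapped with siControl+TGFβ in all 3, and siPHF13+TGFβ lay below siControl+TGFβ in both replicates in SKIDA1 alone of the 3. JAG1 had 2551 and 3639 bp, 4572 and 3274 bp, and 1510 and 3770 bp. At the other end, REL varied from 2565 to 2816 bp over the 6 lists.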

How the data were processed

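ChIP-seq libraries of PANC-1 cells were used as 18 deposited peak lists, 6 for each modification. Of the series, 6 input samples have no lists and were not analysed here. Per the study's methods and processing notes, the authors trimmed reads with Trim Galore 0.4.1, aligned them to hg19 with Bowtie2 2.4.1, removed duplicates with Picard and called peaks in each library against input with MACS2 2.2.7.1. Replicates were not pooled. The deposited columns are MACS2's score, its fold enrichment as a ratio to input, and −log10 values of p and q (p-value and q-value), none changed here. Fold enrichment described peak height, the −log10 q-value served a filter, and the score was not used. The lowest −log10 q was 1.30 in the narrow lists and 1.00 for H3K27me3, so the narrow lists reach below the threshold stated in the methods.

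Genes and TSSs were those of GENCODE release 44 lifted to GRCh37, and all peaks lay within the GRCh37 chromosomes. Domain members and gene lists were chosen with earlier results of these data known. Named genes were the 12 widest coding and 4 widest noncoding domains, those nearest the limit, the 8 with the largest H3K27ac difference in each comparison among domains whose groups did not overlap, the 10 with most H3K27me3, the widest of those without H3K27ac, list members in domains, PHF13 and SNAI1. Others were chosen after their values were seen. Shares within 500 bp of coding TSSs were tested by exact sign-flip permutation over 6 libraries, and 2 against 2 libraries by exact permutation. Per region, log2 of H3K4me3 bp, and of H3K27ac bp plus 100 where at least 4 of 6 libraries had the mark, were fitted with limma 3.58.1 in R 4.3.3 (all 3 groups in 1 fit, Benjamini-Hochberg adjusted p under 0.05). Alternatives changed the length limit (2000 and 3000 bp), a −log10 q filter of 3, the pseudocount (10 bp), scaling, joining of gaps and each library left out. Values of single genes in some of the lists are not reported here.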

Additional observations from a re-analysis of the deposited data

How the results depend on the processing

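The number of domains followed the limit: 3879 at 2000 bp, 129 at 3000 bp, and 766 to 1176 when each library was left out, the highest without siPHF13+TGFβ replicate 1. Joining regions up to 500 bp apart, chosen after seeing the data, gave 1366 domains that held all 913 and would have taken in the PHF13 TSS at 2829 bp. The H3K27ac excess at domain TSSs was 14.4 to 16.4 points and the H3K27me3 deficit -10.2 to -9.14 points with each library left out, at an exact permutation p of 0.0625, the smallest that 5 libraries allow. Against regions from 2000 bp up to the limit they were 0.292 and -0.597 points. In the domains, the log2 difference of H3K27ac with TGFβ ranged from 0.28 to 0.72 with single libraries left out and was -0.14 relative to other regions. For PHF13 depletion these were -2.88 to 0.11 and 0.22. For H3K27me3 they ranged from -0.16 to 0.47 with TGFβ, and from -0.66 to -0.07 with depletion, where it was 0.15 relative to other regions. Centring each library turned the limma median over domains for H3K4me3 with TGFβ from 0.10 to -0.037 and with depletion from -0.19 to 0.075, and that of H3K27ac from 0.43 to -0.13 and from -1.38 to 0.34. With single libraries left out, the median with depletion ranged from -0.31 to -0.048 for H3K4me3 and from -2.88 to 0.072 for H3K27ac. Leaving out a library gave 0 to 1 limma calls among domains for H3K4me3 with depletion and 0 to 766 for H3K27ac. Both highest counts were without siPHF13+TGFβ replicate 2 (0.11% of domains against 3.37% of all regions, and 87.8% against 74.3%), where the lone replicate 1 is assumed to vary like the other groups. Causes were not tested beyond this. With a replicate block the H3K27ac differences were 0.50 (exact permutation p = 0.5) and -1.39 (p = 1), and limma gave 0 calls. The difference between replicates 1 and 2 of a group, taken per region, was correlated between groups over the regions. For H3K4me3 and H3K27ac this correlation was -0.26 and -0.32 between siControl and siControl+TGFβ. It was -0.22 and -0.25 between siControl+TGFβ and siPHF13+TGFβ, and 0.46 and 0.26 between siControl and siPHF13+TGFβ. For both marks, replicate 1 had the shorter list in siControl and siPHF13+TGFβ and the longer one in siControl+TGFβ. The part of list length in these correlations was not tested, so they cannot decide whether the libraries were paired. A block with siControl+TGFβ numbers crossed, added after seeing the data, gave 0 calls. Tests of 2 against 2 libraries could not pass the threshold under any alternative.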

Other observations

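Domains were unevenly spread over chromosomes. Chromosome 6 held 93, 7.07% of its six-list regions, whereas chromosome 19 held 23 (1.68%), chromosome 22 held 6 of 463 and chromosome Y held 0 of 62.

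A pair of domains carried all 3 modifications in every list. The domain at chr6:58776263-58779491 lay 0.675 kb from an assembly gap of at least 1 Mb, and H3K27ac covered 97.3% and H3K27me3 19.6% of it on average. Its H3K27ac was 3016 bp in siPHF13+TGFβ replicate 1, a library in which the median domain had 153 bp. The domain at chr4:49120161-49123288 lay 537 kb from such a gap, with H3K27ac over 78.1% and H3K27me3 over 100% of it. In all, 7 domains lay within 1 Mb of such a gap.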
